A study of Mus musculus with 15 samples.

Results

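The genes described here are the cell cycle machinery and its inhibitors in mouse lung. The set holds 49 genes chosen by known function: 10 of DNA replication, 27 of mitosis, 5 G1 cyclins, 5 inhibitors of cyclin-dependent kinases (CDKs) and the transcription factors Foxm1 and E2f1. RNA was measured on 3' expression arrays, on which a probe set is a group of short probes for the end of a transcript. A gene was read from probe sets that name it alone, using the probe set with the highest mean over 15 arrays. This gave values for 48 of the 49 genes, out of 18193 genes in all. Ccnb1 had no such probe set, so it has no value here.

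The samples compared form 4 groups of 3 arrays, all from mice of mixed background kept without treatment. At 12 months, pieces of wild-type whole lung were compared with pieces of single lung tumours. At 7 months, which the series describes as before the start of tumours, pieces of wild-type whole lung were compared with pieces of mutant whole lung. Tumours and 7-month mutant lungs have the same genotype, which includes the deletion written Smad4d/d; Smad4 is the shared partner of the receptor-activated Smads in TGF-beta and BMP signalling. The Smad4 deletion is not the whole of that genotype, so no difference below is assigned to it. No source used here says what drives the deletion or whether a 7-month sample holds tissue of 1 animal. Nothing says that the arrays of a group came from separate animals, except for animal numbers on most 12-month samples, so the p-values measure the spread between arrays, which may be technical.

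As background, a cell enters division when D-type cyclins with Cdk4 or Cdk6, and then E-type cyclins, inactivate the retinoblastoma protein and free E2F factors. These switch on the replication genes, which load and fire origins (the Mcm helicase) and supply nucleotides (Rrm1, Rrm2, Tyms). Later Foxm1 and related complexes switch on the mitotic genes, with Cdk1 and its cyclins at the centre. The CDK inhibitors Cdkn1a (p21), Cdkn1b (p27) and the INK4 proteins oppose these steps. Adult lung is largely quiescent, and RNA of replication and mitosis genes is widely read as a measure of how many cells divide. In bulk tissue, fewer cells of a type and less RNA per cell cannot be told apart.

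Several facts of the arrays stand beside the results. Array medians lay between 90.9 and 99.5 intensity units, and arrays of a group correlated at 0.982 to 0.994 across the 18193 genes on a log2 scale. Control probe sets for 18S ribosomal RNA averaged 6381 ± 778 (SD, n = 3) in wild-type lung at 12 months and 1700 ± 504 (SD, n = 3) in tumours. The Smad4 probe set was not lower in mutant tissue (2965 to 3688 in tumours against 2664 to 2924; 3166 to 3364 in mutant lung against 3163 to 3304), and no source used here places it within the deletion, so it does not check the labels. Xist, which marks the inactive X chromosome, read 64.1 to 237 in the tumours, with the Y-linked Eif2s3y at 1567 to 1908. In wild-type lung at 12 months Xist read 6786, 69.8 and 6917, so the sexes were not balanced between those groups. At 7 months 5 of 6 arrays, among them all 3 mutant arrays, carried both Xist (4516 to 4959) and Eif2s3y (727 to 923). Wild-type array 3 read 48.1 for Xist and 1504 for Eif2s3y, so these signals were not balanced at 7 months either. Summed over 10 macrophage markers, tumours read 15229 to 24795 against 35874 to 41943, and over 12 endothelial markers 11120 to 19634 against 27417 to 29474. Over 11 ciliated-cell markers they read 15086 to 21955 against 7126 to 9065, with all 11 called higher. Over 9 basal and squamous markers they read 3142 to 6837 against 460 to 462. Mutant lung at 7 months had ciliated sums of 9448 to 11246 against 5426 to 5593, basal and squamous sums of 704 to 1353 against 442 to 523, and endothelial sums of 27217 to 33598 against 37975 to 38972, with 4 of 12 endothelial markers called lower. The part of these differences in the results below was not tested.

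Few cell cycle genes differed from wild type, either before tumours or in them. In tumours 1 of the 48 genes was higher (Ccnd2, 1.80-fold) and 1 was lower (Bub1b, 1.79-fold) at an adjusted p under 0.05. Fold values here and below are of intensity + 16, so they understate the ratio of the readings, above all for dim genes. Of all genes 15.2% were called in tumours, 9.23% higher and 6.02% lower, so the members' count was below that background in both directions. In mutant lung at 7 months 1 gene was higher (Cdk1, 1.72-fold) and 0 were lower by limma, against 6.42% and 1.39% of all genes (7.81% together). At an unadjusted p under 0.05, 3 members were higher and 5 lower in tumours, beside 17.1% and 13.7% of all genes. At that threshold 2 were higher and 1 lower at 7 months, beside 14.1% and 9.21%. The members' median difference in log2(intensity + 16), called the log2 difference from here on, was -0.01 in tumours and 0.08 at 7 months, beside 0.01 for all genes in both.

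The precision of the arrays sets a limit on what could have been missed. For each of the 36 measured replication and mitosis genes, the 95% interval of the tumour difference lay below a 2-fold rise. For 29 of them it also lay below a 1.5-fold rise. At 7 months the interval lay below a 2-fold rise for 34 of the 36; the exceptions were Top2a and Cdk1. These intervals are per gene and are not adjusted for their number. Their folds are of intensity + 16, so the limit on a rise in the readings themselves is looser for dim genes. For Kif20a, with a mean of 39.4 in wild-type lung at 12 months, the upper limit of the log2 difference in tumours was 0.80. A 2-fold rise of its reading is therefore not excluded.

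**Figure D1:**
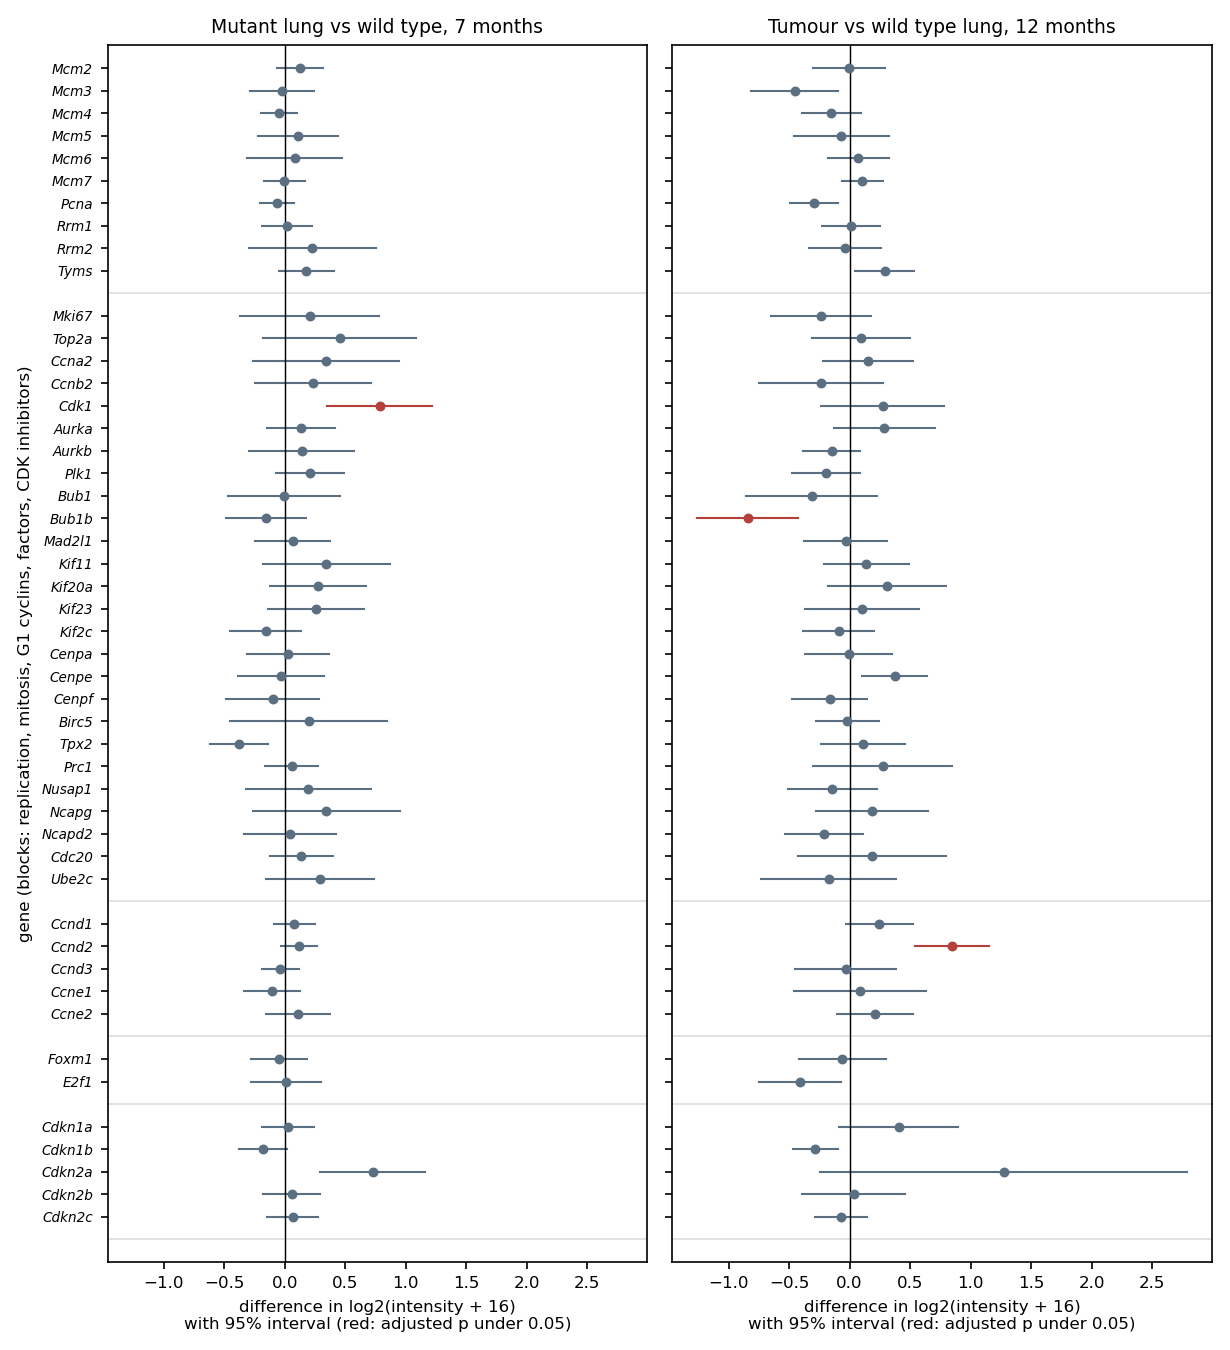
Log2 differences from the wild type of the same month for the 48 measured genes (points) with 95% intervals (lines), at 7 months on the left and in tumours on the right, in blocks by role. Red marks an adjusted p under 0.05: Cdk1 at 7 months, and Bub1b and Ccnd2 in tumours.

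Among the 10 replication genes limma called none in either comparison, and the median log2 difference was -0.02 in tumours and 0.05 at 7 months. At an unadjusted p under 0.05, 1 was higher and 2 were lower in tumours (17.1% and 13.7% of all genes), and 0 either way at 7 months (14.1% and 9.21%). Mcm2, a subunit of the replicative helicase, read 429, 460 and 384 in wild-type lung at 12 months and 454, 364 and 455 in tumours. The groups overlapped, and the log2 difference was 0.00 ± 0.12 (SE, adjusted p = 0.986). Mcm5, another subunit, read 281, 330 and 245 against 287, 219 and 310 in tumours, again with overlap (-0.07, adjusted p = 0.820). At 7 months Mcm2 read 311, 370 and 354 in wild-type and 360, 371 and 402 in mutant lung, and the lowest mutant array lay inside the wild-type range.

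Pcna, the sliding clamp of DNA polymerase, gave a lower reading in every tumour. It read 2481, 2521 and 2428 in wild-type lung at 12 months and 1910, 2161 and 1985 in tumours. These ranges did not overlap, but the log2 difference of -0.29 did not pass the test (adjusted p = 0.0603). It passed in 5 of 16 alternative analyses, with adjusted p from 0.00413 to 0.283. In 7-month lung Pcna overlapped between the groups (-0.07, adjusted p = 0.575).

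The other 7 replication genes ran from -0.45 to 0.29 in tumours. At the low end was Mcm3, a helicase subunit, at 328, 347 and 334 in wild-type lung and 303, 202 and 229 in tumours (adjusted p = 0.0958). Among the 5 Mcm3 probe sets 3 differed below 0 and 2 above. At the high end was Tyms, the thymidylate synthase, at 43.1, 37.3 and 35.5 in wild-type lung and 49.2, 46.3 and 56.9 in tumours (adjusted p = 0.106). Among the 4 Tyms probe sets 3 differed below 0, down to -0.14, so its direction rests on the 1 used. Mcm7 also lay higher in every tumour, by 0.11 (adjusted p = 0.371). Mcm4, Mcm6 and the ribonucleotide reductase subunits Rrm1 and Rrm2 overlapped between the groups, with log2 differences from -0.15 to 0.07. A second Mcm6 probe set with mean readings of 2.53 in tumours and 9.33 in wild-type lung was called lower, while the one used here differed by 0.07; the former reads below the added 16 units.

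The mitosis genes share promoter features that the choice of members did not use. A pair of elements was searched on both strands of RefSeq promoter windows of assembly GRCm38.p6, which run from 250 bases before to 50 after the transcription start. The letters TTTGAA are those of the CHR (cell cycle genes homology region), through which the DREAM and Foxm1 complexes act, and CCAAT is the box bound by NF-Y. A window was held by 40 of the 49 genes. TTTGAA was found for 17 of 23 mitosis genes (73.9%), against 20.2% of the 27018 genes in the table. CCAAT was found for 19 of 23 (82.6%), against 41.1%, and both together for 16 of 23 (69.6%), against 7.97%. Among the replication genes CCAAT was as common (8 of 9), but TTTGAA was found for 1 of 9. The E2F-type letters GGCGGGAA were found for 2 of 9 replication genes (Mcm3 and Rrm1) and 0 of 23 mitosis genes, against 2.52% of all. A match to letters is a description and not a site of binding.

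The windows of the mitosis genes called in either comparison, Cdk1 and Bub1b, and of the standard division marker Mki67, which was called in neither, are printed because all 3 carry both elements although their RNA did not move alike. Capitals mark TTTGAA or CCAAT on either strand (the reverse strand reads TTCAAA and ATTGG), and each sequence runs 5′ to 3′ along the gene's own strand.
Cdk1: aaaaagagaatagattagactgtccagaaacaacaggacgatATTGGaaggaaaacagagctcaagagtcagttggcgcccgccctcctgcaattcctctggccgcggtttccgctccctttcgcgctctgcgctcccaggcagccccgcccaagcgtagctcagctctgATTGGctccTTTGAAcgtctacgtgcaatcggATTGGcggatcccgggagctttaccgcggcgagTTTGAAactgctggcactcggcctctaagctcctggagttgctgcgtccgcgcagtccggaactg
Bub1b: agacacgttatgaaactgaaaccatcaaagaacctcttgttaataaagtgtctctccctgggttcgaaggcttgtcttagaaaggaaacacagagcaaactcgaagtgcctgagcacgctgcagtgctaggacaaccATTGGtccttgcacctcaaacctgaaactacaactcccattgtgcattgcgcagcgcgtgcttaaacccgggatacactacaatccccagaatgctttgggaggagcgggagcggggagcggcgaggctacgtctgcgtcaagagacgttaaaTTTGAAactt
Mki67: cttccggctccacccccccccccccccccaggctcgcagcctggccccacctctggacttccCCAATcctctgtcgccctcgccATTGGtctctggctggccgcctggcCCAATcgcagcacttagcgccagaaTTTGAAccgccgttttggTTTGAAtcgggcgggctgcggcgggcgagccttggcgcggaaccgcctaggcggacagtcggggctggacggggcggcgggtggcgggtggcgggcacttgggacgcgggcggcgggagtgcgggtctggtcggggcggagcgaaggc
The Cdk1 window is chr10:69352863-69353162 on the minus strand, with TTTGAA at positions -71 and -15 from the start and 3 CCAAT matches. The Bub1b window is chr2:118597961-118598260 on the plus strand, with its only TTTGAA at position 41 and 1 CCAAT at -113. The Mki67 window is chr7:135716330-135716629 on the minus strand, with TTTGAA at -116 and -98 and 3 CCAAT matches.

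Mki67, the gene of the Ki-67 protein used to stain dividing cells, was not higher in tumours. It read 305, 446 and 466 in wild-type lung at 12 months and 364, 330 and 316 in tumours. All 3 tumours lay inside the wild-type range, and the log2 difference was -0.24 ± 0.17 (SE, adjusted p = 0.404). At 7 months it read 158.5, 234 and 269 in wild-type and 235, 220 and 304.5 in mutant lung, with overlap (0.21, adjusted p = 0.686).

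Top2a, the topoisomerase that untangles chromosomes before they part, gave the same picture in tumours. It read 286, 429 and 435 in wild-type lung at 12 months and 411, 409.85 and 389.5 in tumours (0.09, adjusted p = 0.754), so the tumours again fell within the wild-type range. At 7 months it read 148, 222 and 292 in wild-type and 254, 275 and 376 in mutant lung. Only the highest mutant array lay above all wild-type arrays, and the log2 difference of 0.45 had a 95% interval from -0.18 to 1.09 (adjusted p = 0.383). The 3 Top2a probe sets ran from -0.20 to 0.45 at 7 months, with 1 below 0.

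Cdk1, the kinase that drives entry into mitosis, was the 1 member called before tumours. It read 104, 136 and 140.49 in wild-type lung at 7 months and 195, 211 and 289 in mutant lung. Every mutant array lay above every wild-type array, by a log2 difference of 0.78 ± 0.19 (SE, adjusted p = 0.0416). The call was narrow: leaving out any 1 of the 6 arrays ended it (adjusted p from 0.0514 to 0.123), as did adjusting over all named probe sets (0.0519). In tumours Cdk1 read 322, 351 and 376 beside 203, 314 and 367 in wild-type lung, with overlap (0.27, adjusted p = 0.442). The difference between the tumour and the 7-month difference was -0.51 ± 0.30 (SE, adjusted p = 0.391), so the test did not separate them.

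Bub1b, which encodes the spindle checkpoint kinase BubR1, was the 1 member lower in tumours. It read 124, 158 and 177 in wild-type lung at 12 months and 97.8, 67.1 and 70.1 in tumours. The groups did not overlap, and the log2 difference was -0.84 ± 0.17 (SE, adjusted p = 0.0265). Of its other probe sets, 1 differed by -0.73 without passing the test (adjusted p = 0.0690), and 1 had means of 4.96 in wild-type lung and 1 in tumours, below the added 16 units, and gives no direction. The call ended without wild-type array 2 (adjusted p = 0.0870), wild-type array 3 (0.0871), tumour array 2 (0.0537) or tumour array 3 (0.0877). In mutant lung at 7 months it read 74.9, 76.3 and 78.7 against 65.3, 100.2 and 99.6, and the log2 difference was -0.15 (adjusted p = 0.589); the other 2 probe sets stood at 0.11 and 0.09. Its partner Bub1 overlapped in both comparisons (-0.31 in tumours, adjusted p = 0.404), and a second Bub1 probe set differed by 0.31 in tumours.

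**Figure D2:**
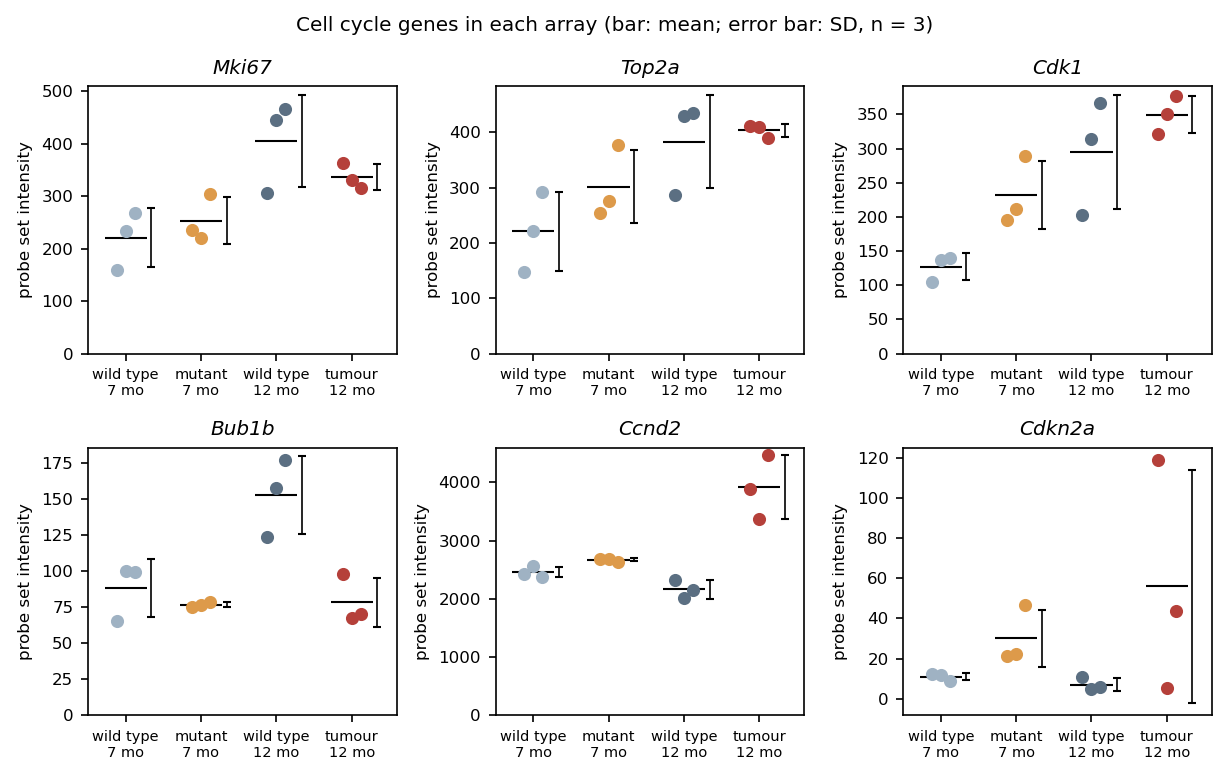
Intensity of 6 genes on each array (points) by group, with the group mean (bar) and SD (error bar, n = 3). Tumours lie within the range of their wild type for Mki67 and Top2a, above it for Ccnd2 and below it for Bub1b. All 7-month mutant arrays lie above theirs for Cdk1, Ccnd2 and Cdkn2a, of which only Cdk1 was called.

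The other 22 measured mitosis genes were called in neither comparison. The mitotic cyclins Ccna2 and Ccnb2 differed by 0.15 and -0.24 in tumours. The mitotic kinases Aurka, Aurkb and Plk1 differed by 0.29, -0.15 and -0.20. Among the spindle motors, Kif20a stood at 0.31, Kif11 at 0.14, Kif23 at 0.10 and Kif2c at -0.09. Each of these 9 genes overlapped between tumours and wild-type lung, and the lowest adjusted p was that of Plk1, 0.311.

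Of the centromere proteins, Cenpe, a kinetochore motor, was higher in every tumour. It read 31.4, 36.8 and 45.1 in wild-type lung and 54.3, 52.1 and 53.03 in tumours (0.37, adjusted p = 0.0719). A second Cenpe probe set differed by -0.04. Cenpa, the centromeric histone, differed by -0.01 and Cenpf by -0.16. Birc5 (survivin) differed by -0.02, the checkpoint protein Mad2l1 by -0.03 and the anaphase activators Cdc20 and Ube2c by 0.18 and -0.17. The condensin subunits Ncapg and Ncapd2 differed by 0.19 and -0.21. The spindle proteins Prc1, Nusap1 and Tpx2 stood at 0.27, -0.14 and 0.11. Over the 26 genes, 12 differences were above 0 in tumours, with a median of -0.01; of all genes 51.1% were above 0.

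At 7 months 20 of the 26 mitosis genes lay above 0, with a median log2 difference of 0.17. Of all genes 51.4% lay above 0. The size of this lean depended on single arrays. The median was 0.04 without wild-type array 1, which was the lowest of its group for 18 of the 26 genes. It was 0.08 without mutant array 3, which was the highest of its group for 24. Without wild-type array 3, which was the highest of its group for 19, the median was 0.28. Leaving out wild-type array 2, mutant array 1 or mutant array 2 gave 0.15, 0.22 and 0.22. Genes with larger differences after Cdk1 and Top2a were Ccna2, Kif11 and Ncapg, each at 0.34, with adjusted p from 0.427 to 0.498. Tpx2, which targets Aurka to the spindle, had a negative difference on the probe set used. It read 126, 160.38 and 128 in wild-type and 96.0, 101.7 and 109 in mutant lung, with no overlap (-0.38, adjusted p = 0.0675). Its other 3 probe sets differed by 0.22, 0.22 and 0.00, so the direction rests on 1 probe set.

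**Figure D3:**
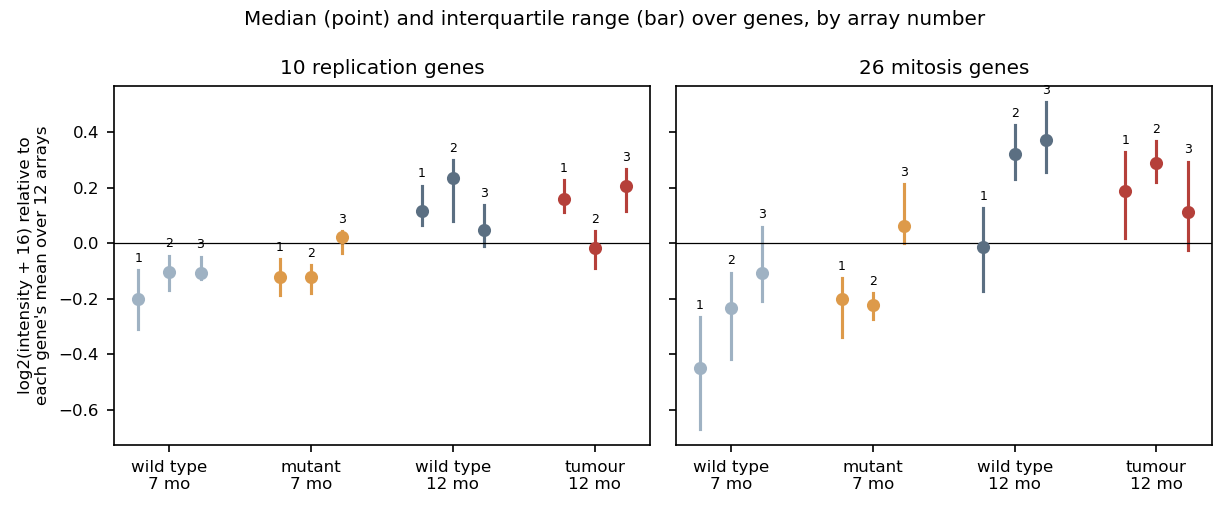
Median (points) and interquartile range (lines) over the replication and mitosis genes of their log2(intensity + 16) relative to each gene's mean over 12 arrays, by array. Within the 12-month wild-type group the mitosis medians run from -0.01 to 0.37, a span that holds all 3 tumours.

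Within 3 of the 4 groups 1 array was the highest or the lowest for most mitosis genes. In wild-type lung at 12 months array 1 was the lowest for 22 of 26 genes, and its median relative level was -0.01 against 0.32 and 0.37 for the others. The 3 tumours had medians of 0.19, 0.29 and 0.11, inside that span, and no tumour array led: arrays 1, 2 and 3 were the highest for 12, 9 and 5 of the 26 genes. For the replication genes tumour array 2 stood apart, the lowest of the 3 for 9 of 10 genes, with a median of -0.02 against 0.16 and 0.21. At 12 months the array with the lowest mitosis median was thus not the one with the lowest replication median, in either group.

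The G1 cyclins gave the 1 rise among the members in tumours. Ccnd2, the D2 cyclin, read 2324, 2008 and 2150 in wild-type lung at 12 months (2161 ± 158, SD, n = 3) and 3887, 3379 and 4476 in tumours (3914 ± 549, SD, n = 3). Every tumour lay above every wild-type array, by a log2 difference of 0.85 ± 0.13 (SE, adjusted p = 0.0119). In 7-month lung Ccnd2 read 2429, 2557 and 2381 in wild-type and 2686, 2680.3 and 2636 in mutant tissue. These ranges did not overlap either, but they lay close, and the log2 difference of 0.12 did not pass the test (adjusted p = 0.324). The tumour difference exceeded the 7-month one by 0.73 ± 0.13 (SE, adjusted p = 0.0144), which held in all 21 alternative analyses of that contrast. It was the 1 member called in this contrast, where 3.17% of all genes were called, 1.75% higher and 1.41% lower. The 2 differences being compared come from sets that also differ in age, in the kind of tissue and in any batch.

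Ccnd2 has 7 probe sets, and 6 of them were called higher in tumours, by 1.78-fold to 2.01-fold. The seventh, at 165 in tumours and 138 in wild-type lung the least bright of them, differed by 0.20 (adjusted p = 0.590). None was called at 7 months. The call in tumours ended without wild-type array 3 (adjusted p = 0.0514).

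**Figure D4:**
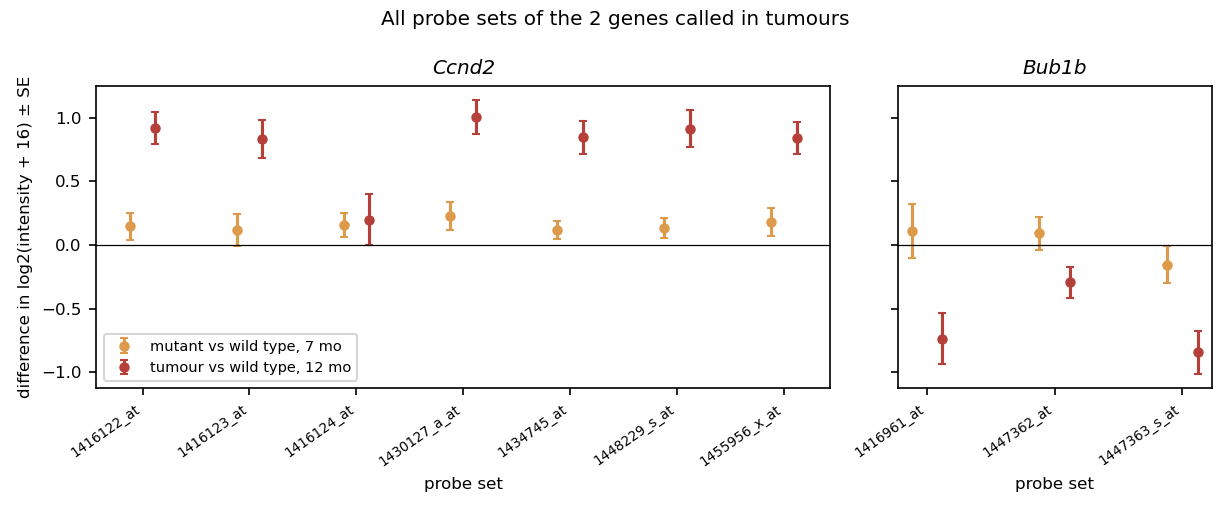
Log2 difference from wild type with its standard error for each probe set of Ccnd2 and Bub1b, at 7 months and in tumours. In tumours 6 of 7 Ccnd2 probe sets lie between 0.84 and 1.01; the middle Bub1b probe set read below the added 16 units at 12 months.

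Ccnd1, the D1 cyclin, read 3561, 4241 and 3413 in wild-type lung at 12 months and 4288, 4822 and 4171 in tumours. One tumour lay inside the wild-type range, and the log2 difference of 0.25 did not pass the test (adjusted p = 0.206). Ccnd3, the D3 cyclin, read 1130, 1208 and 930.4 against 1284, 1069 and 864 and overlapped (-0.03, adjusted p = 0.925). The E cyclins, which act at the entry to replication, also overlapped: Ccne1 read 108, 133 and 167 against 109, 139 and 193 (0.08, adjusted p = 0.843), and Ccne2 differed by 0.21 (adjusted p = 0.335). At 7 months Ccnd1, Ccnd3, Ccne1 and Ccne2 differed by -0.10 to 0.11, and none was called.

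Foxm1, which drives the mitotic genes, read 69.0, 72.4 and 88.0 in wild-type lung at 12 months and 77.8, 84.3 and 57.3 in tumours. The groups overlapped (-0.06, adjusted p = 0.824), as they did at 7 months (-0.05, adjusted p = 0.835). E2f1, which drives replication genes, read 88.6, 69.4 and 87.3 in wild-type lung and 46.7, 60.2 and 66.4 in tumours. Every tumour lay lower, but the log2 difference of -0.41 did not pass the test (adjusted p = 0.103). At 7 months the E2f1 difference was 0.01 (adjusted p = 0.979).

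None of the 5 CDK inhibitors was called by limma in either comparison; at an unadjusted p under 0.05, 1 was lower in tumours (13.7% of all genes) and 1 higher at 7 months (14.1%). Cdkn1a (p21), a p53 target, read 1333, 1231 and 2042 in wild-type lung at 12 months and 2183, 2000.5 and 1800.2 in tumours. Wild-type array 3 lay among the tumours, and the log2 difference was 0.41 ± 0.20 (SE, adjusted p = 0.235). Cdkn1b (p27) read 1833, 1671 and 1751 against 1439, 1421 and 1451 in tumours. Its ranges did not overlap, and the log2 difference of -0.28 missed the threshold (adjusted p = 0.0554); it passed in 5 of 16 alternative analyses. At 7 months Cdkn1a and Cdkn1b differed by 0.03 and -0.18 and overlapped.

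Cdkn2a, which encodes p16 INK4a and p19 ARF from separate starts, was the most uneven member. It read 10.7, 4.68 and 5.93 in wild-type lung at 12 months and 119, 5.2 and 43.5 in tumours. Tumours 1 and 3 lay above all wild-type arrays and tumour 2 lay among them, and the log2 difference was 1.27 ± 0.63 (SE, adjusted p = 0.230). Without tumour array 2 it was 1.97 (adjusted p = 0.0237). In mutant lung at 7 months it read 21.3, 22.1 and 46.7 against 12.2, 12.0 and 8.89, above wild type on every array (0.73, adjusted p = 0.0547). That difference passed in 4 of 16 alternative analyses, with adjusted p from 0.0365 to 0.443. Most of these readings lie near or below the added 16 units, so a fold change is understated and the order of the dim readings is uncertain. Its neighbour Cdkn2b (p15) overlapped in both comparisons (0.03 in tumours and 0.06 at 7 months), at 486 to 738 in wild-type lung and 620 to 719 in tumours. Cdkn2c (p18) also overlapped (-0.07 in tumours, at 834 to 876 against 750.4 to 879, and 0.06 at 7 months).

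Counted by overlap alone, 4 members lay above wild type on every tumour array (Mcm7, Tyms, Cenpe and Ccnd2) and 5 lay below (Mcm3, Pcna, Bub1b, Cdkn1b and E2f1). Of all genes 20.5% lay above and 17.0% below. At 7 months 3 members lay above (Cdk1, Ccnd2 and Cdkn2a) and 1 below (Tpx2), beside 15.2% and 10.9% of all genes. These shares of the members do not exceed the background. They rest on 1 probe set per gene. For 35 members with several probe sets, all of a gene's differences had the same sign in 15 genes in tumours and 15 at 7 months.

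Further genes of the same pathways, outside the 49, were mostly not called either. At 7 months 26 of 35 other mitosis genes and 18 of 23 other replication genes lay above 0 (medians 0.14 and 0.10), beside 51.4% of all genes. By limma at an unadjusted p under 0.05, 6 and 5 of them were higher and 0 and 1 lower, beside 14.1% and 9.21%. In tumours 20 of 35 and 10 of 23 lay above 0, beside 51.1%. These lists were not tested as sets. Beside the counts called in these lists stand 9.23% of all genes higher and 6.02% lower in tumours. At 7 months the shares were 6.42% and 1.39%. Of 35 other mitosis genes 1 was higher in tumours, Melk, a kinase linked to dividing and progenitor cells. Melk read 52.2, 70.7 and 72.8 in wild-type lung at 12 months and 288, 225 and 442 in tumours (3.999-fold, adjusted p = 0.00857). At 7 months it read 20.5, 38.8 and 40.6 in wild-type and 77.1, 99.4 and 98.7 in mutant lung (2.22-fold, adjusted p = 0.00361). Nek2, a centrosome kinase, was the other one of the 35 called at 7 months. It read 121, 196 and 192 in wild-type and 472, 648 and 588.5 in mutant lung (3.19-fold, adjusted p = 0.000730); with the mean of all its probe sets the log2 difference was 0.75 in place of 1.67, still called. In tumours it read 1338, 677 and 1623 against 317, 648 and 441 in wild-type lung, with no overlap (1.31, adjusted p = 0.0709).

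Of 23 other replication genes 2 were higher in tumours, beside 9.23% of all genes. These were the dUTPase Dut (1.49-fold) and the methylation maintenance factor Uhrf1 (1.61-fold). The polymerase alpha subunit Pola2 was lower (1.32-fold), but with the mean of all its probe sets the log2 difference was -0.04 (adjusted p = 0.785). Of 16 alternative analyses, 10 kept the call of Dut, 10 that of Pola2 and 8 that of Uhrf1. At 7 months Gmnn, which encodes the licensing inhibitor geminin, was the 1 called, at 1.33-fold higher (called in 10 of 17). Of 23 other regulators 4 were lower and 0 higher in tumours, beside 6.02% and 9.23% of all genes. The 4 were the retinoblastoma gene Rb1 (1.28-fold), Cdk6 (1.43-fold), the E2F partner Tfdp2 (1.58-fold) and the cyclin G gene Ccng2 (1.52-fold). Ccng2 was called in 14 of 16 alternative analyses. The calls of Rb1, Cdk6 and Tfdp2 each ended when any 1 of the 6 arrays was left out, and held in 8, 8 and 7 of the 16. At 7 months Cdk4, the partner of the D cyclins, and the repressor E2f7 were higher, by 1.23-fold and 1.29-fold. These calls held in 8 of 17 alternative analyses for Cdk4, with log2 differences down to 0.13, and in 11 of 17 for E2f7.

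Of 15 p53 targets 3 were lower in tumours and 0 higher by limma, the stress genes Gadd45b (1.43-fold) and Plk3 (1.76-fold) and the death receptor gene Fas (1.43-fold). At an unadjusted p under 0.05, 4 were lower and 0 higher in tumours (13.7% and 17.1% of all genes), and 3 were lower and 4 higher at 7 months (9.21% and 14.1%). Plk3 was called in 15 of 16 alternative analyses, Gadd45b in 10 and Fas in 8. At 7 months the p53 inhibitor Mdm2 (1.18-fold) and Ccng1 (1.22-fold) were higher and Fas was lower (1.32-fold). Mdm2 was called in 5 of 17 alternative analyses, Ccng1 in 7 and Fas in 12. Of 9 genes listed under centriole amplification, by which ciliated cells build many centrioles without dividing, 3 were higher in both comparisons. These were Deup1 (3.07-fold in tumours and 2.45-fold at 7 months), Foxj1 (2.13-fold and 2.39-fold) and Myb (1.87-fold and 1.62-fold), called in 12, 12 and 7 of 16 alternative analyses of the tumours and 17, 17 and 16 of 17 at 7 months. They stand beside the higher ciliated-marker sums given above, but those sums include Foxj1, so the 2 are not independent. Ccno, Cdc20b, Plk4, Cep152 and Stil of the same list were called in neither comparison. Cdc20b averaged below the added 16 units in tumours and in both 7-month groups, so its missing call says little. The centriole scaffold gene Sass6 was lower in tumours (1.47-fold, called in 8 of 16).

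More members were separated without overlap between the 2 wild-type groups than in either comparison with mutant tissue, and so were more of all genes. Of all genes 30.5% lay higher and 18.2% lower at 12 months. The shares were 20.5% and 17.0% in tumours against wild type, and 15.2% and 10.9% at 7 months. In wild-type lung at 12 months 25 of 48 members (52.1%) lay above all wild-type arrays at 7 months, beside 30.5% of all genes. These were 9 of 10 replication genes and 15 of 26 mitosis genes, with median log2 differences of 0.26 and 0.54, beside 0.09 for all genes. Ccnd2, Ccnd3 and Cdkn1a lay below on every array, 3 of 48 members beside 18.2% of all genes, so this count does not exceed the background. Sums of cell type markers also lay apart between these groups, at 12 months against 7 months. B-cell and plasma-cell sums were 11681 to 14222 against 3212 to 6403, macrophage sums 35874 to 41943 against 18318 to 28583, and ciliated sums 7126 to 9065 against 5426 to 5593. Endothelial sums were lower at 12 months, 27417 to 29474 against 37975 to 38972. The part of these markers in the difference was not tested. Age and the set in which the arrays were run cannot be told apart, so the difference has no test, and levels of tumours and 7-month tissue are not compared directly.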

How the data were processed

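RNA of mouse lung was labelled by the Affymetrix 3' IVT Express protocol from total RNA, per the labels' protocols. The values deposited by the authors are linear probe set intensities; background correction, summarization and scaling were not stated in the sources read here. Arrays have no read depth, and their small number limits precision. Of 45101 probe sets, 34945 with 1 symbol in the platform annotation were used, 932 with several and 9211 unlisted were not. Each of 18193 genes was read from its probe set with the highest mean log2(intensity + 16), a scale that understates changes of dim genes.

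Groups were compared with limma 3.58.1 in R 4.3.3 (lmFit, eBayes, two-sided), and p-values were adjusted by Benjamini-Hochberg over all genes. The 12-month fit used 6 arrays, the 7-month fit 9 and the contrast between both differences 15; a further group of 3 arrays enters the latter fits and is not reported here. The fits were tested on simulated data. Same-numbered 7-month arrays did not deviate together (correlations of -0.13, 0.02 and -0.08), so the numbers were not used as pairs. The members, lists, tests and naming rule (every called member and a fixed set of key members, and up to 4 called genes per further list) were chosen with earlier results of these data known. Motifs were searched by exact match in RefSeq windows of 300 bases.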

Additional observations from a re-analysis of the deposited data

Results flagged for a closer look

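Of the values above, 4 differed between the tumour comparison and the 7-month comparison by the contrast over 15 arrays (limma, adjusted over all genes). Ccnd2 rose by 0.85 in tumours and stood at 0.12 at 7 months, a difference of 0.73 (log2, adjusted p = 0.0144). Sass6, of the centriole scaffold, fell by 0.56 in tumours and stood at 0.30 at 7 months, a difference of -0.86 (adjusted p = 0.0101); with the mean of all its probe sets the difference was -0.50 (adjusted p = 0.155). Pola2 fell by 0.40 in tumours and stood at 0.07 at 7 months, a difference of -0.48 (adjusted p = 0.0209), and 5 of 21 alternative analyses ended that call. Prim1, the primase subunit that works with it, stood at -0.33 and 0.15, a difference of -0.48 (adjusted p = 0.0457), and 13 of 21 ended it. Groups of 3 arrays are too small for a test of single outlying arrays.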

How the results depend on the processing

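In tumours the number of members called lower was 1; it was 2 with median centring, 3 with a pseudocount of 64, 3 without genes of mean intensity under 64, 3 with a variance trend and robust fitting, 5 with all 15 arrays in 1 fit, and 0 to 2 when single arrays were left out. The number called higher was 1; it was 2 with all 15 arrays in 1 fit and 0 to 2 when single arrays were left out. A term for Xist, which nearly coincides with the groups, left 0 members higher and 0 lower, and of all genes 1 higher and 0 lower (Ccnd2 then differed by 0.95, adjusted p = 0.127, and Bub1b by -0.90, adjusted p = 0.204). At 7 months the number called higher was 1; it was 2 with a variance trend and robust fitting, 0 in a fit of only the 2 groups, and 0 to 1 when single arrays were left out. The number called lower was 0 and became 1 without the dim genes. The cause of these shifts was not tested. With the replicate block at 7 months, 1 member was higher and 0 lower, as without it, and 157 of all genes were lower in place of 253. Under that block the calls of Gmnn (adjusted p = 0.0644), Cdk4 (0.0607), Ccng1 (0.0754) and Mdm2 (0.0854) ended. Over the alternatives all genes called ran from 1 to 2735 higher and 0 to 2191 lower in tumours, from 730 to 1371 and 37 to 555 at 7 months, and from 158 to 857 and 85 to 973 for the contrast between them. In that contrast Ccnd2 was called in 21 of 21 alternatives, and the members called stayed at 1 higher and 0 lower. No called member changed sign under the alternatives run. The members' median log2 difference ran from -0.09 to 0.05 in tumours and from 0.00 to 0.12 at 7 months. Readings near or below 16, as for Cdkn2a, are limited by background.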
